A study of Mus musculus with 4 samples.

Results

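The aldehyde dehydrogenases (ALDHs) examined here are 10 mouse genes, Aldh1a1, Aldh1a2, Aldh1a3, Aldh1b1, Aldh1l1, Aldh2, Aldh3a2, Aldh7a1, Aldh9a1 and Aldh18a1. They were chosen by symbol from a deposited table of 22063 genes, and all 10 were listed in it. The table came from RNA-seq of ID8, a cell line derived from mouse ovarian surface epithelium, and held 4 libraries. The 2 shCtrl libraries, labelled WT, came from cells with a control short hairpin RNA. The 2 shUSP9X libraries, labelled USP9X knockdown, came from cells with a hairpin against Usp9x, an X-linked gene for a deubiquitinating enzyme that removes ubiquitin from other proteins. Per the study's methods, hairpins were delivered with a lentivirus in a vector that carries puromycin resistance. The methods do not name the vector of the control separately. The labels do not give the hairpin used, the TGF-β1 or oxygen conditions of these cells, or whether the libraries came from separate cultures. Each p-value therefore measures the spread between these libraries, which may be technical. The deposited column names of the shUSP9X libraries carry an extra digit that may number a hairpin, which the labels do not explain. The shCtrl libraries held 17232006 and 15611363 estimated counts in all, and the shUSP9X libraries 19978889 and 17021261.

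Most ALDHs oxidize aldehydes to carboxylic acids with NAD or NADP as the cofactor. Aldh1a1, Aldh1a2 and Aldh1a3 encode the cytosolic enzymes that turn retinaldehyde into retinoic acid, whereas Aldh2 and Aldh1b1 encode related mitochondrial enzymes that clear acetaldehyde and products of lipid peroxidation. Other members belong to the metabolism of fatty aldehydes, lysine, carnitine, folate and proline. ALDH activity and ALDH1A1 are widely used to mark stem-like cells in ovarian cancer, and the study used ALDH1A1 together with CD44 in that way. The question addressed here was which isoforms made up the ALDH messenger RNA of ID8 cells, and which of them differed after USP9X knockdown.

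The mouse Aldh1a1 RT-qPCR primers of the study are shown because Aldh1a1 has a close copy, Aldh1a7, beside it on chromosome 19. Each primer is printed above its closest stretch in Aldh1a7, with the bases of Aldh1a7 that differ in capitals.
Aldh1a1 forward: ggaataccgtggttgtcaagcc
Aldh1a7 at forward: ggaaCacTgtggttgtcaagcc
Aldh1a1 reverse: ccagggacaatgtttaccacgc
Aldh1a7 at reverse: ccagggacaatgttCaccacgc
In GRCm38 the forward primer lay in exon 9 of 16 of Aldh1a1 at chr19:20623380-20623401, on the plus strand. The reverse primer lay in exon 10 at chr19:20624728-20624749, on the minus strand. Both exons are coding, and the product had 112 bases. Among the GENCODE M21 transcripts, each primer matched only Aldh1a1 without a mismatch. Counted from 1 at the 5′ end of each primer, the differences from Aldh1a7 were T5C and C8T in the forward primer and T15C in the reverse primer. The coding sequences of Aldh1a1 and Aldh1a7 were identical at 91.6% of aligned bases (1380 of 1506). For comparison, the identity of Aldh1b1 and Aldh2 was 69.0%. Of the 2309 windows of 50 bases in the longest Aldh1a1 transcript, 151 (6.54%) also occurred in Aldh1a7. Fragments that lie wholly within such shared stretches cannot be told apart, and their share was not measured. No other member shared such a window with a transcript of another gene read in the same direction.

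The libraries were first checked against their labels. For Usp9x, the shCtrl libraries held 5169 and 4453 counts, and the shUSP9X libraries 390 and 346, which are far apart. Of 10 markers of ovarian surface epithelium and mesothelium, 9 exceeded 3 counts in both shCtrl libraries and 8 in both shUSP9X libraries. Their summed level was 2610 and 2630 CPM (counts scaled to library size and TMM factor) in shCtrl and 2870 and 2820 CPM in shUSP9X. The keratin gene Krt19 led the sum, while Krt7 had 0, 0, 2 and 3 counts. The list did not move as a block. Of its 9 tested genes, 3 rose in edgeR's test (the keratin genes Krt8, Krt18 and Krt19) and 5 fell (Wt1, Msln, Gpm6a, Lrrn4 and Muc16), beside 33.8% and 33.6% of all genes tested. Krt8 had a log2 fold change of 0.92 and the mesothelial genes Wt1 and Msln of -0.52 and -0.47. Muc16, which encodes the CA125 antigen, had 33 and 43 counts in the shCtrl libraries against 1 and 0 after knockdown.

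Transcripts of other cell types also differed between libraries. The 4 hepatocyte markers summed to 0.173 and 0 CPM in shCtrl and to 0.152 and 42.8 CPM in shUSP9X. The albumin gene Alb, the most abundant of them, had 635 counts in shUSP9X replicate 2 and 0 in the other 3 libraries. In that library 18 genes had at least 20 counts while no other library exceeded 3, and these genes made up 0.00783% of its counts. Because liver expresses many ALDHs, the values of the members are also given below without shUSP9X replicate 2. The 14 leukocyte markers summed to 4.38 and 4.36 CPM in shCtrl and to 15.6 and 15.6 CPM in shUSP9X. Of the 5 tested leukocyte genes, 4 rose in edgeR's test and 0 fell, beside 33.8% and 33.6% of all genes tested. The integrin gene Itgam had 0 and 0 counts in shCtrl against 72 and 75 in shUSP9X. Adgre1 (58 and 59), Ptprc (29 and 18) and Csf1r (17 and 13 in shUSP9X) were also at 0 in both shCtrl libraries. Cd68, the most abundant of the list with 74, 68, 118 and 85 counts, did not pass the test. Cd3e and Cpa3 were at 0 in every library. Fibroblast markers summed to 252 and 259 CPM in shCtrl and 148 and 145 CPM in shUSP9X, led by Dcn, with Lum at 0. Endothelial markers summed to 10.4, 11.6, 6.48 and 7.0 CPM, led by Tek, with Cdh5, Kdr and Emcn at 0. The part of these cell types in the ALDH values was not tested.

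Levels were compared between genes in FPKM, which divides fragments by transcript length as well as by library size. Aldh2 was the most abundant member in every library and Aldh18a1 the next. After them came Aldh9a1 and Aldh3a2, whose order was not the same in the 2 groups, then Aldh7a1. Aldh1a1 was the sixth member, at 2.59 ± 0.26 FPKM in shCtrl and 3.44 ± 0.486 FPKM in shUSP9X (SD, n = 2 each). Aldh1b1 and Aldh1l1 stayed below 1 FPKM, and Aldh1a3 and Aldh1a2 were at or near 0. Every value of Aldh9a1 and Aldh3a2 lay above every value of Aldh7a1, and these in turn above Aldh1a1. Aldh3a2 was the higher of its pair in both shCtrl libraries and Aldh9a1 in both shUSP9X libraries.

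**Figure D1:**
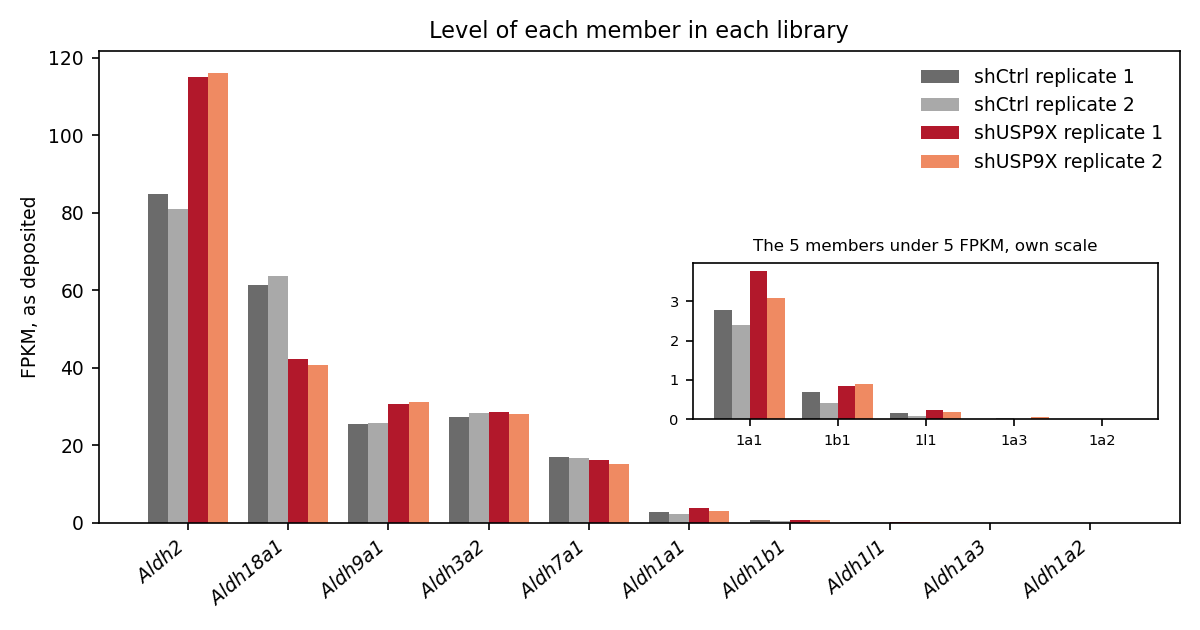
Deposited FPKM (vertical axis) of the 10 members in each of the 4 libraries, ordered by mean level, 1 bar a library, with the 5 members under 5 FPKM repeated in the inset on their own scale. Aldh2 reached 115 and 116 FPKM in shUSP9X against 84.8 and 81.1 FPKM in shCtrl, Aldh18a1 stood lower in both shUSP9X libraries, and Aldh1a1 stayed under 4 FPKM.

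Of the 10 members, 7 had enough counts to be tested. With edgeR's quasi-likelihood test and Benjamini-Hochberg adjustment over 11448 genes, 3 of these 7 rose in shUSP9X (Aldh2, Aldh9a1 and Aldh1a1), 1 fell (Aldh18a1), and 3 did not pass an adjusted p of 0.05 (Aldh1b1, Aldh3a2 and Aldh7a1). Over all genes tested, 33.8% rose and 33.6% fell, so a change in either direction was called for 67.3% of genes and for 57.1% of the tested members. The members' share of calls was thus not above that of the transcriptome. The median log2 fold change was 0.30 over the 7 members and 0.00 over all genes tested, and with the GC and length offset described next it was 0.09 and 0.01. As an alternative, the trend of the fold changes over the GC content and length of each gene's longest transcript was removed with an offset. With that offset for GC and length, 1 of the 7 rose and 2 fell, against 32.5% and 31.0% of all genes tested. None of the 4 called members changed by more than 1.5-fold, whereas 29.1% of all genes tested passed the adjusted p and that fold together. CPM values of the 2 groups did not overlap for 6 of the 7 tested members, and the same held for 82.3% of all genes tested.

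Aldh2 encodes the mitochondrial enzyme best known for oxidizing acetaldehyde. The gene (ENSMUSG00000029455) lies on the minus strand at chr5:121566027-121593824 in GRCm38. The shCtrl libraries held 1976 and 1708 counts and the shUSP9X libraries 2998 and 2546, equal to 84.8 and 81.1 FPKM against 115 and 116 FPKM. Both shUSP9X libraries lay above both shCtrl libraries. The log2 fold change was 0.45 ± 0.05 (SE; adjusted p = 6.32e-09, edgeR), a 1.36-fold rise, and it was 0.46 (adjusted p = 1.05e-09, edgeR) without shUSP9X replicate 2. With an offset for GC content and transcript length it was 0.25 (adjusted p = 5.54e-05, edgeR). An exon of Gm42879 overlaps 3.4% of the longest Aldh2 transcript, and the library kit does not mark strand, so reads in that stretch cannot be assigned to a strand.

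Aldh1b1, the nearest member to Aldh2 by coding sequence, is also mitochondrial (ENSMUSG00000035561, chr4:45799022-45804604, plus strand). It was far less abundant, with 27 and 15 counts in the shCtrl libraries against 39 and 35 after knockdown. The groups did not overlap, and its log2 fold change was 0.68, but its 95% interval ran from -0.09 to 1.44 and it did not pass the test (adjusted p = 0.109, edgeR). It was 0.65 (adjusted p = 0.306, edgeR) without shUSP9X replicate 2, 1.10 (adjusted p = 0.0659, edgeR) without shCtrl replicate 1 and 0.38 (adjusted p = 0.47, edgeR) without shCtrl replicate 2, so its size rested on the shCtrl library used. At this depth a change of the size seen for Aldh2 could not be told from none in Aldh1b1.

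Aldh18a1 was the only tested member that fell. It encodes delta-1-pyrroline-5-carboxylate synthase, a mitochondrial enzyme with a kinase and a reductase activity that starts the synthesis of proline and ornithine from glutamate, so it makes an aldehyde where other ALDHs remove one. The gene (ENSMUSG00000025007) lies on the minus strand at chr19:40550257-40588463. The shCtrl libraries held 3484 and 3398 counts, and the shUSP9X libraries 2888 and 2406. The levels were 61.4 and 63.7 FPKM in shCtrl and 42.2 and 40.7 FPKM in shUSP9X, with no overlap. The log2 fold change was -0.52 ± 0.05 (SE; adjusted p = 1.17e-10, edgeR), and it was -0.50 (adjusted p = 3.64e-12, edgeR) without shUSP9X replicate 2. The fall was called in all 15 alternative analyses, between -0.74 and -0.47.

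Aldh9a1 encodes the enzyme that oxidizes 4-trimethylaminobutyraldehyde in carnitine synthesis (ENSMUSG00000026687, chr1:167349991-167368532, plus strand). The shCtrl libraries held 1253 and 1141 counts, against 1744 and 1506 after knockdown, or 25.6 and 25.8 FPKM against 30.8 and 31.2 FPKM, and the groups did not overlap. The log2 fold change was 0.30 ± 0.06 (SE; adjusted p = 3.23e-05, edgeR), and it was 0.30 (adjusted p = 0.000579, edgeR) without shUSP9X replicate 2. The call did not hold with the GC and length offset, where the log2 fold change was 0.09 (adjusted p = 0.143, edgeR).

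The sequences upstream of Aldh18a1 and Aldh9a1 are shown because these members moved in opposite directions in a study that concerns TGF-β and hypoxia signaling. Both are the 250 bases before the RefSeq start site in GRCm38.p6, at chr19:40588464-40588713 on the minus strand and at chr1:167349741-167349990 on the plus strand. Capitals mark matches, on either strand, to ACGTG (a core of the hypoxia response element), GCGTG (another form of that core, and the core of the xenobiotic response element), CAGAC (the Smad box) and TGACNNNGC (the antioxidant response element).
Aldh18a1 upstream: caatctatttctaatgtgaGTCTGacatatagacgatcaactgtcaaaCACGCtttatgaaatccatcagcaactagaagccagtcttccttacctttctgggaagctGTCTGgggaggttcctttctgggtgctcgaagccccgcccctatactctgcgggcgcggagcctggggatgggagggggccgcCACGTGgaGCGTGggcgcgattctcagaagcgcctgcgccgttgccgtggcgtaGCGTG
Aldh9a1 upstream: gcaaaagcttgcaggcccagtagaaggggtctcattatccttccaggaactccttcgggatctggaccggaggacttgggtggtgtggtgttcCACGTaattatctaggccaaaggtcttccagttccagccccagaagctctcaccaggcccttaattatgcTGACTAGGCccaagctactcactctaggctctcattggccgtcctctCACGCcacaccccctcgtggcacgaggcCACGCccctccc
In Aldh18a1 the letters ACGTG matched 2 times, once on each strand of 1 palindrome. GCGTG matched 3 times and CAGAC 2 times. In Aldh9a1 there was 1 match to ACGTG, 2 to GCGTG and 1 to TGACNNNGC. Neither window held TGATGNAA, the response element read by ATF4. Over all 32851 upstream windows of this length, 16.6% held ACGTG, 28.2% held GCGTG, 42.2% held CAGAC, 10.2% held TGACNNNGC and 3.45% held TGATGNAA. The matches describe letters only. In the promoter table, 7 of the 10 members were matched by symbol, and Aldh2, Aldh1a3 and Aldh7a1 were not.

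Aldh1a1, the member used as a stem-cell marker, was detected at a low level (ENSMUSG00000053279, chr19:20492715-20643465, plus strand). The shCtrl libraries held 98 and 77 counts and the shUSP9X libraries 155 and 108, or 2.77 and 2.40 FPKM against 3.78 and 3.09 FPKM. Both shUSP9X libraries were higher than both shCtrl libraries, although the gap between shCtrl replicate 1 and shUSP9X replicate 2 was smaller than that between the 2 shUSP9X libraries. The log2 fold change was 0.44 ± 0.19 (SE; 95% interval 0.05 to 0.83; adjusted p = 0.0434, edgeR), a 1.36-fold rise like that of Aldh2 but with a wider error. This call was lost in 8 of 15 alternative analyses. The adjusted p was 0.232 with DESeq2. In edgeR the log2 fold change was 0.29 (adjusted p = 0.353) without shUSP9X replicate 1 and 0.34 (adjusted p = 0.171) without shCtrl replicate 2. It was 0.56 (adjusted p = 0.0327, edgeR) without shCtrl replicate 1 and 0.58 (adjusted p = 0.0272, edgeR) without shUSP9X replicate 2. The close copy Aldh1a7, which lies 49488 bases downstream of Aldh1a1 on the opposite strand, had 4, 5, 10 and 18 counts, too few to pass the filter. When genes with low counts were kept, its log2 fold change was 1.5 (adjusted p = 0.143, edgeR).

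The other retinaldehyde dehydrogenases were hardly detected. Aldh1a2 (ENSMUSG00000013584, chr9:71215789-71296243, plus strand) had 0 counts in every library. A count of 0 allows up to 3 counts, or 0.173 and 0.19 CPM in shCtrl and 0.152 and 0.178 CPM in shUSP9X, a limit that covers counting error only. Aldh1a3 (ENSMUSG00000015134, chr7:66390890-66427517, minus strand) had counts of 0 and 1 in the shCtrl libraries against 0 and 3 after knockdown, at or under that floor, so no fold change is given. Aldh1a1 therefore carried nearly all of the counts of these 3 genes.

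Aldh3a2 encodes the fatty aldehyde dehydrogenase of the endoplasmic reticulum (ENSMUSG00000010025, chr11:61223417-61267464, minus strand). Its fold change was the smallest in size among the tested members, with 27.4 and 28.3 FPKM in shCtrl and 28.7 and 28.1 FPKM in shUSP9X, and the groups overlapped. The log2 fold change was 0.03, with a 95% interval from -0.08 to 0.15 (adjusted p = 0.600, edgeR), and it was 0.06 without shUSP9X replicate 2. With the GC and length offset the sign turned, to -0.08.

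Aldh7a1 encodes antiquitin, which oxidizes alpha-aminoadipic semialdehyde in lysine breakdown (ENSMUSG00000053644). It had 16.9 and 16.7 FPKM in shCtrl and 16.3 and 15.1 FPKM in shUSP9X. The log2 fold change was -0.07, with a 95% interval from -0.25 to 0.10 (adjusted p = 0.436, edgeR), and it was -0.03 without shUSP9X replicate 2. Only with the GC and length offset did it pass the test, at -0.18 (adjusted p = 0.0494, edgeR), and not with that offset and a replicate block (adjusted p = 0.0528, edgeR). Exons of the neighbouring gene Phax overlap 7.3% of its longest transcript.

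Aldh1l1 encodes cytosolic 10-formyltetrahydrofolate dehydrogenase, a folate enzyme (ENSMUSG00000030088, chr6:90486427-90600203, plus strand). The shCtrl libraries held 3 and 4 counts and the shUSP9X libraries 14 and 9, too few to pass the filter. When genes with low counts were kept, its log2 fold change was 1.54 (adjusted p = 0.184, edgeR), and it was 1.72 (adjusted p = 0.156, edgeR) without shUSP9X replicate 2. An exon of Gm15756 overlaps 10.5% of its longest transcript.

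The 7 tested members did not change alike in size or in stability across alternative analyses. Aldh2 and Aldh18a1 were called in all 15 alternatives, Aldh9a1 in 13 of 15 and Aldh1a1 in 7 of 15.

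**Figure D2:**
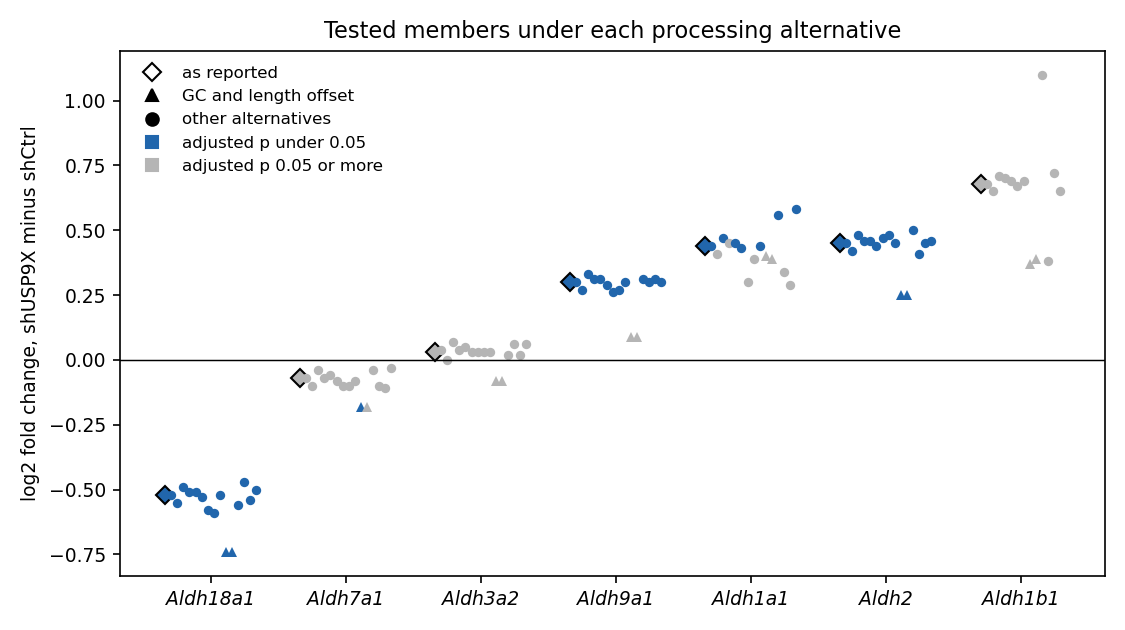
Log2 fold change (vertical axis, shUSP9X minus shCtrl) of the 7 tested members under the reported analysis (diamonds), the GC and length offsets (triangles) and the other alternatives (circles), blue where the adjusted p was under 0.05 and grey where it was not. Aldh2 stayed between 0.25 and 0.50 and Aldh18a1 between -0.74 and -0.47, all blue, and the triangles lay below the circles for Aldh2, Aldh9a1, Aldh3a2, Aldh7a1 and Aldh18a1.

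The members together took a small part of each library. Their counts were 0.0514% of shCtrl replicate 1 (95% Wilson interval 0.0504% to 0.0525%) and 0.0525% of shCtrl replicate 2 (0.0514% to 0.0537%). In shUSP9X the shares were 0.0510% (0.05% to 0.052%) and 0.0503% (0.0492% to 0.0513%). The intervals cover counting error only. In FPKM the summed level was 219 ± 0.849 in shCtrl and 237 ± 2.41 in shUSP9X (SD, n = 2 each), a ratio of 1.08. In CPM scaled by TMM it was 515 ± 5.31 and 512 ± 5.71, a ratio of 0.994. The groups did not overlap in FPKM, but they did in CPM scaled by TMM (511 and 519 in shCtrl, 516 and 508 in shUSP9X). A higher summed level in shUSP9X was thus seen in FPKM and not in CPM. The exact permutation test used here for a single value cannot go below p = 0.333 with 2 libraries against 2, and no other test of the sum was made.

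Within the sum the leading isoforms shifted against each other. Aldh2 carried 38.6% and 37.1% of the summed FPKM in shCtrl and 48.4% and 49.2% in shUSP9X. Aldh18a1 carried 27.9% and 29.2% in shCtrl and 17.7% and 17.3% in shUSP9X. In the members' sum the mean share of Aldh2 was 11.0 percentage points higher in shUSP9X, and that of Aldh18a1 was lower by as much. These differences were not tested, but the SD within a group was 1.05 percentage points or less for both genes. Their joint share was 66.5%, 66.3%, 66.1% and 66.5% across the 4 libraries. The ratio of Aldh2 to Aldh18a1 in FPKM was 1.38 and 1.27 in shCtrl and 2.73 and 2.84 in shUSP9X. Unlike this ratio, the shares depend on which genes are summed. The members' sum leaves out Aldh3a1, which had 15.6 and 14.6 FPKM in shCtrl and 77.2 and 77.4 FPKM in shUSP9X. The sum of all 21 ALDH genes rose by a ratio of 1.3, against 1.08 for the members' sum. The gain of Aldh2 in share is therefore smaller in that wider sum, where shares were not computed.

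The remaining members held smaller shares of the summed FPKM. Aldh9a1 went from 11.7% ± 0.088 to 13.1% ± 0.258 (SD, n = 2 each), Aldh3a2 went from 12.7% ± 0.347 to 12% ± 0.0539, and Aldh7a1 from 7.68% ± 0.0286 to 6.63% ± 0.299. These shifts depended on the unit, since by counts the share of Aldh3a2 was higher in shUSP9X by 0.469 percentage points, that of Aldh9a1 by 3.33, and that of Aldh7a1 differed by -0.306. These 5 genes together carried 98.0% to 98.7% of the sum in each library. Aldh1a1, Aldh1a2 and Aldh1a3 together carried 1.26% and 1.11% in shCtrl and 1.59% and 1.34% in shUSP9X.

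Which isoform led depended on how length was treated. By counts, Aldh18a1 was first in shCtrl with 39.3% and 41.4% of the members' counts, and Aldh2 had 22.3% and 20.8%. In shUSP9X they were nearly level by counts, at 28.3% and 28.1% for Aldh18a1 and 29.4% and 29.8% for Aldh2. The length implied by the deposited count and FPKM was 1352, 1349, 1300 and 1294 bases for Aldh2 in the 4 libraries, although its longest annotated transcript has 3867 bases. For Aldh18a1 it was 3293, 3414, 3424 and 3474 bases, close to its longest transcript of 3527 bases. The first place of Aldh2 in FPKM therefore rests on a short effective transcript, while the opposite shifts of the 2 genes were present in both units.

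**Figure D3:**
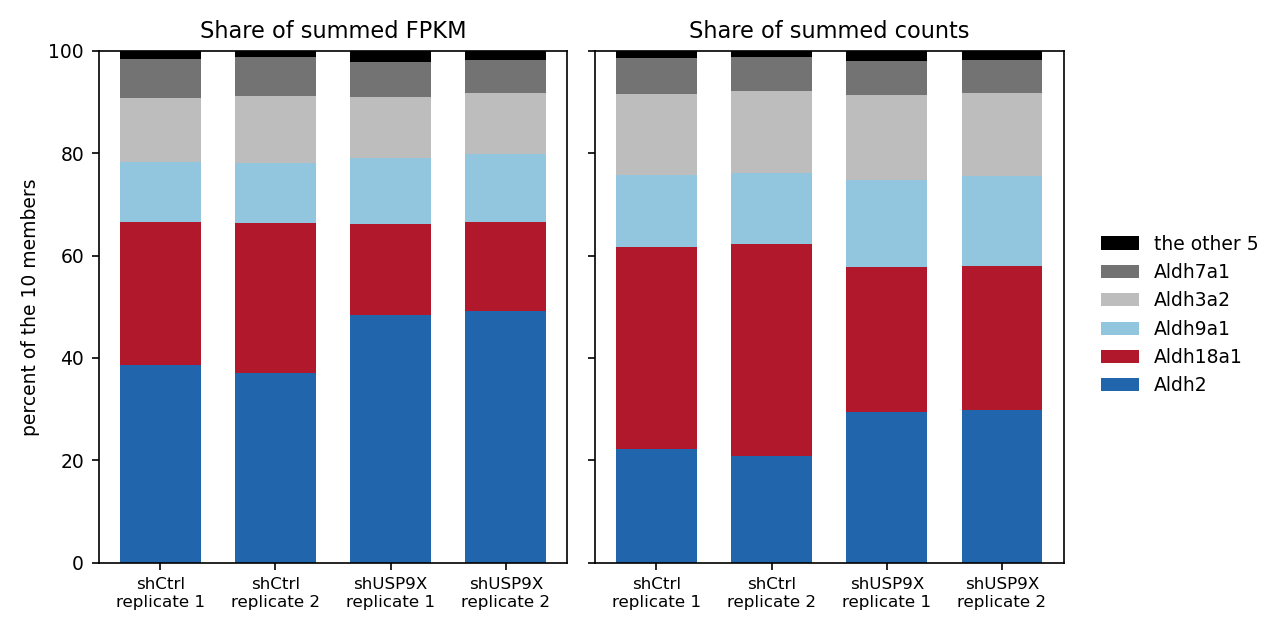
Share of each member (vertical axis, percent) in the summed FPKM (left) and in the summed counts (right) of the 10 members, 1 bar a library, with the 5 least abundant members together in black. The Aldh2 band widened from 38.6% and 37.1% to 48.4% and 49.2% of FPKM between shCtrl and shUSP9X while the Aldh18a1 band narrowed, and by counts Aldh18a1 was the widest band in shCtrl.

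The other 11 ALDH genes in the table put these sizes in context. Of the 7 that could be tested, 3 rose and 2 fell, with a median log2 fold change of -0.18, beside 33.8% and 33.6% of all genes tested. With the GC and length offset 2 rose and 3 fell. Aldh3a1, which encodes a cytosolic enzyme abundant in the cornea, had 15.6 and 14.6 FPKM in shCtrl and 77.2 and 77.4 FPKM in shUSP9X. Its log2 fold change was 2.38 ± 0.06 (SE; adjusted p = 1.44e-21, edgeR), a 5.21-fold rise and the largest of the family. In both shUSP9X libraries Aldh3a1 lay below Aldh2 (115 and 116 FPKM) and above Aldh18a1 (42.2 and 40.7 FPKM). It was thus the second most abundant of the 21 ALDH genes there, although it is not a member. Aldh3a1 lies 4996 bases from Aldh3a2, which did not pass the test. The ratio of Aldh3a1 to Aldh3a2 in FPKM was 0.570 and 0.516 in shCtrl and 2.69 and 2.75 in shUSP9X. With Aldh3a1 and the other family genes included, the summed level of the 21 ALDH genes was 267 ± 0.355 FPKM in shCtrl and 347 ± 3.78 FPKM in shUSP9X (SD, n = 2 each), a ratio of 1.3. In CPM scaled by TMM it was 655 ± 2.42 and 756 ± 9.62, a ratio of 1.15.

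Aldh6a1, which encodes methylmalonate semialdehyde dehydrogenase of valine breakdown, fell by 0.96 on the log2 scale (adjusted p = 1.58e-07, edgeR), from 5.50 and 5.48 FPKM to 2.94 and 2.83 FPKM. Aldh1l2, the mitochondrial counterpart of Aldh1l1, fell by 0.40 on the log2 scale (adjusted p = 0.000315, edgeR). With the GC and length offset the log2 fold change was -0.62 for Aldh6a1 and -0.20 for Aldh1l2, both still called. Aldh3b1, which acts on lipid aldehydes, rose by 0.56 (adjusted p = 0.00029, edgeR), but not with the GC and length offset (adjusted p = 0.0935, edgeR). Aldh16a1, an unusual family member, rose by 0.38 (adjusted p = 0.000237, edgeR), although it was 0.20 with the offset (adjusted p = 0.0348, edgeR), and limma on log2(FPKM + 1) gave an adjusted p of 0.0697. Aldh4a1, which completes proline breakdown, and Aldh5a1, which oxidizes succinic semialdehyde, did not pass the test, at -0.18 (adjusted p = 0.322, edgeR) and -0.34 (adjusted p = 0.0819, edgeR). Aldh4a1 was called lower with the GC and length offset, at -0.39 (adjusted p = 0.032, edgeR). Its log2 fold change was 0.00 without shUSP9X replicate 2 and -0.39 without shUSP9X replicate 1, so its size rested on the shUSP9X library used. Of the longest Aldh4a1 transcript, 47.2% overlaps exons of Gm21969, so its counts are uncertain. Smaller overlaps with other genes covered 17.7% of Aldh5a1, 17.5% of Aldh1l2, 9.9% of Aldh6a1 and 4.2% of Aldh16a1. Aldh3b1 shares 9.55% of its windows of 50 bases with Aldh3b2 and Aldh3b3. Aldh3b2 and Aldh3b3 had 0 counts in every library, and Aldh8a1 had 2 counts, both in shUSP9X replicate 2.

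**Figure D4:**
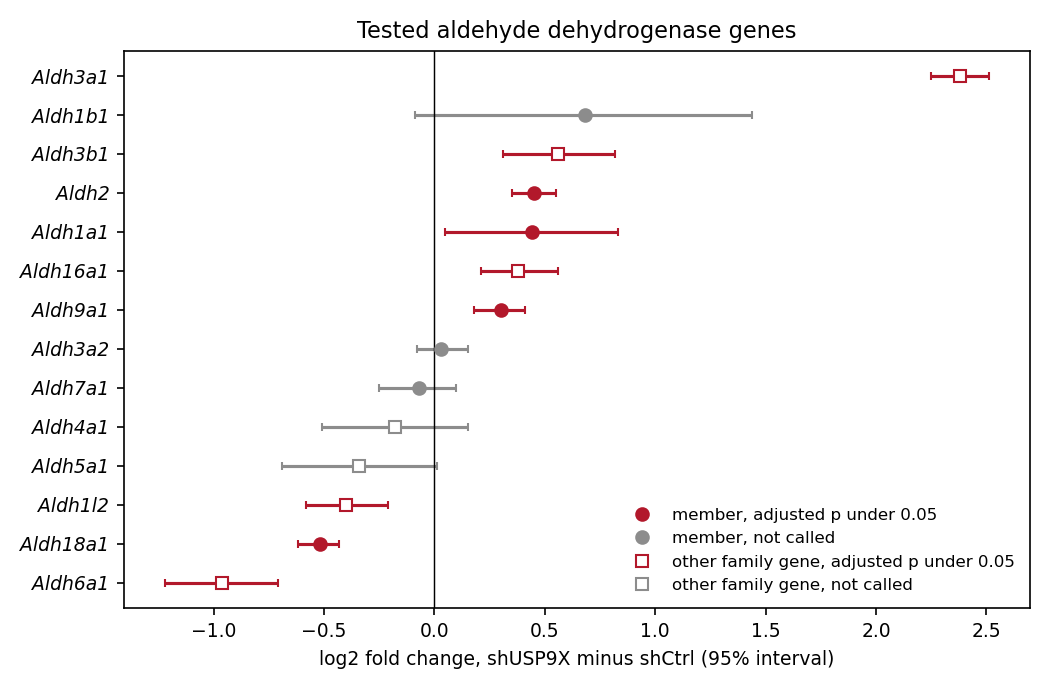
Log2 fold change (horizontal axis, shUSP9X minus shCtrl) with its 95% interval for the 14 tested ALDH genes, circles for the members and open squares for the other family genes, red where the adjusted p was under 0.05. Aldh3a1 stood apart at 2.38, Aldh6a1 was lowest at -0.96, and the 4 called members lay between -0.52 and 0.45.

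The genes most like 2 of the members over the 4 libraries were found by the root mean square (RMS) difference of centred log2 CPM. For Aldh2, the member with the highest mean FPKM, they were Myg1 (RMS difference 0.0023), Hars (0.0038) and Set (0.0054) among 9081 genes. For Aldh1b1, the tested member with the largest fold change in size in the reported analysis, they were Cenps (0.076), Coa7 (0.096) and Usb1 (0.11) among 9082 genes. With 2 groups of 2 libraries, this likeness mostly means a similar fold change, which was 0.45 for all 3 genes near Aldh2.

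The pathways around the members were described with lists of their genes, whose counts stand beside 33.8% of genes that rose and 33.6% that fell over all genes tested (32.5% and 31.0% with the GC and length offset). In proline and glutamate metabolism, where Aldh18a1 acts, 6 of 12 tested genes rose and 5 fell, with a median log2 fold change of 0.16, so 11 of 12 were called against 67.3% of all genes. Glul, which encodes glutamine synthetase, had 5.78 and 4.78 FPKM in shCtrl and 1.17 and 1.21 FPKM in shUSP9X (log2 fold change -1.66, adjusted p = 3.08e-08, edgeR). Pycrl, which encodes a reductase for the last step to proline, had 29.6 and 32.6 FPKM in shCtrl and 54.6 and 57.7 FPKM in shUSP9X (0.88, adjusted p = 7.75e-12, edgeR). Prodh, which encodes proline dehydrogenase and begins proline breakdown, had 1.5 and 1.94 FPKM against 2.55 and 3.19 FPKM (0.83, adjusted p = 0.00224, edgeR). With the GC and length offset the log2 fold change was 0.52 for Pycrl and 0.54 for Prodh, both still called. Pycr1, which encodes another reductase for that step, fell by 0.66 on the log2 scale (adjusted p = 0.00139, edgeR), in the direction of Aldh18a1.

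In the retinoid pathway, where Aldh1a1 acts, 4 of 13 tested genes rose, 3 fell and 6 did not pass the test, with a median of -0.01, and 7 of 13 called against 67.3% of all genes. With the offset 4 rose and 5 fell, with a median of -0.13. Dhrs3, which encodes a reductase that turns retinaldehyde back into retinol, had 2.47 and 4.09 FPKM in shCtrl and 0.80 and 1.29 FPKM in shUSP9X (log2 fold change -1.56, adjusted p = 2.63e-05, edgeR). Rdh5, a retinol dehydrogenase gene, had 3.68 and 4.40 FPKM against 1.80 and 1.81 FPKM (-1.05, adjusted p = 0.00674, edgeR). Its call was lost in 3 of 15 alternatives, with a fold change of about the same size. The log2 fold change was -1.04 with DESeq2 (adjusted p = 0.0874), -0.98 without shCtrl replicate 2 and -1.02 without shUSP9X replicate 1. Rxra, which encodes a retinoid X receptor, had 10.9 and 9.95 FPKM against 17.9 and 19.0 FPKM (0.79, adjusted p = 1.45e-11, edgeR). The retinoic acid receptor genes Rara, Rarb and Rarg did not pass the test, with log2 fold changes of -0.02, 0.30 and 0.09. With the offset Rara was called lower, at -0.19 (adjusted p = 0.0333, edgeR), and the sign of Rarg turned, to -0.13.

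Among alcohol dehydrogenases and aldehyde reductases, which make or reduce aldehydes, 9 of 14 tested genes rose (33.8% of all genes) and 3 fell (33.6%), with a median of 0.26. With the GC and length offset 6 rose and 2 fell, with a median of 0.11. Adh7, an alcohol dehydrogenase that also acts on retinol, had 3.47 and 2.73 FPKM in shCtrl and 14.6 and 14.9 FPKM in shUSP9X (log2 fold change 2.27, adjusted p = 1.78e-16, edgeR). Akr1c18, an aldo-keto reductase known for degrading progesterone, belongs to a family of close copies among which reads may be split. It had 1.90 and 1.51 FPKM against 6.26 and 5.58 FPKM (1.82, adjusted p = 1.41e-07, edgeR). Cbr3, a carbonyl reductase, had 6.15 and 7.99 FPKM against 22.9 and 24.5 FPKM (1.78, adjusted p = 1.75e-12, edgeR).

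In folate one-carbon metabolism, where Aldh1l1 acts, 9 of 15 tested genes rose (33.8% of all genes) and 4 fell (33.6%), with a median of 0.20. Fpgs, which adds glutamates to folates, had 12.6 and 12.7 FPKM in shCtrl and 24.5 and 24.1 FPKM in shUSP9X (log2 fold change 0.97, adjusted p = 1.01e-11, edgeR). Slc19a1, the reduced folate carrier, rose by 0.86 (adjusted p = 7.81e-09, edgeR), and Gart, an enzyme of purine synthesis, rose by 0.76 (adjusted p = 1.49e-14, edgeR). In lysine, choline and carnitine metabolism, the setting of Aldh7a1 and Aldh9a1, 1 of 5 tested genes rose and 1 fell, with a median of -0.08 that turned to 0.16 with the GC and length offset. Slc44a1, a choline transporter gene, fell by 0.48 on the log2 scale (adjusted p = 1.55e-10, edgeR), but its sign turned with the GC and length offset. Sardh, which encodes sarcosine dehydrogenase, rose by 0.27 (adjusted p = 0.00239, edgeR), but not with that offset (adjusted p = 0.0843, edgeR) and not in FPKM, where its sign turned.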

How the data were processed

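Polyadenylated RNA of ID8 cells was sequenced in 4 libraries, which the labels assign to shCtrl or shUSP9X with a replicate number. Per the study's methods, reads were mapped to GRCm38 (mm10) and analysed with StringTie and DESeq2. The submitters' processing notes name fastp 0.18.0, Bowtie2 2.2.8, HISAT2, StringTie 1.3.1 and RSEM, without their roles. For each gene and library the authors deposited estimated counts, not normalized and not always whole, and an FPKM value, scaled for transcript length and library size.

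Counts were rounded, filtered with filterByExpr, scaled by TMM and tested with edgeR 4.0.16 (R 4.3.3; limma 3.58.1, DESeq2 1.42.0) over 11448 genes, with no replicate block. The test had been planned for whole-number counts. Errors are SE for fold changes and SD for levels. FPKM was used for levels and shares, which had no test. Coordinates and transcripts came from GENCODE M21 and upstream sequences from RefSeq (GRCm38.p6). The scripts were tested on simulated data. Alternatives were other scalings, filters and tools, FPKM, a replicate block, an offset for GC content and length, and leaving out each library.

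The members and lists were chosen with earlier results of these data known. Named genes are all members, Usp9x, the other ALDHs, in each pathway list the 3 genes with the largest fold change among those called with no overlap between groups, and the 3 genes nearest in pattern to Aldh2 and Aldh1b1, with a mean log2 CPM of at least 3. Marker genes come from lists of ovarian surface epithelium and mesothelium, leukocyte, endothelial, fibroblast and hepatocyte markers; those named from these lists, the retinoic acid receptor genes, Pycr1, Tyrp1 and Dct were chosen after their values were seen. Some genes of the lists are not reported here. The values without shUSP9X replicate 2 were planned, and its liver transcripts were examined after they had been seen.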

Additional observations from a re-analysis of the deposited data

How the results depend on the processing

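Aldh2 and Aldh18a1 kept their direction and their call in all 15 alternatives. The count of members that rose was 3, and it was 1 with the GC and length offset and 1 with that offset and a replicate block, while the count that fell was 1, became 2 with the offset and was 1 with the offset and the block. Leaving out each library gave 2 to 3 members that rose and 1 that fell. Over all genes, 3318 to 3652 fell and 3423 to 3869 rose when a library was left out. In lysine, choline and carnitine metabolism, 2 genes changed, and 1 did so in FPKM with either pseudocount and with the offset, with or without the block. Aldh3a2 turned from 0.03 to -0.08 with the offset, with or without the block. Slc44a1 turned to 0.16 in the same fits, and Sardh to -0.04 with either FPKM pseudocount. The offset, centred on the median residual after centring on the mean had been seen to skew the calls, also moved Usp9x from -3.85 to -2.17, and the cause was not tested. The log2 ratio of the summed level was 0.11 in FPKM, -0.01 in TMM CPM, -0.04 in CPM by library size and 0.38 with all family genes in FPKM (0.21 for these in CPM scaled by TMM), and 0.10 to 0.12 with a library left out. By counts in place of FPKM, the share shifts were 8.03 percentage points for Aldh2, -12.1 for Aldh18a1, 3.33 for Aldh9a1, 0.469 for Aldh3a2 and -0.306 for Aldh7a1. In FPKM these shifts were 11.0, -11.0, 1.37, -0.697 and -1.05, and with a library left out they ran from 10.2 to 11.7, from -11.6 to -10.4, from 1.19 to 1.56, from -0.942 to -0.452 and from -1.26 to -0.836. Replicate numbers are not known to pair libraries, since the deviations of same-numbered libraries correlated at -0.0453, and the fit with the replicate block alone changed no member's call, while adding it to the offset ended that of Aldh7a1 (adjusted p = 0.0528 against 0.0494 in edgeR). Depth limits Aldh1b1, Aldh1a1, Aldh1l1 and Aldh1a3, which had 155 counts or fewer.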

Other observations

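In shCtrl replicate 2 the pigment cell genes Tyrp1 and Dct had 113 and 31 counts, and both had 0 in the other 3 libraries. The source of these counts was not tested. In Aldh1l1, the length implied by the deposited count and FPKM was 1042 bases in shCtrl replicate 1, with 3 counts, and 3014, 3047 and 3021 bases in the other libraries. Its FPKM of 0.167 in that library is therefore not on the same transcript basis as the others.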
